A study of Mus musculus with 2 samples.

Results

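The 10 genes described here, of 31054 features in the count tables, are linked to the extracellular matrix of the bladder wall. Smoc2, Tnc, Postn, Spon1, Matn2, Vit, Svep1, Itgbl1 and C1qtnf3 encode secreted proteins that sit in or act on it, and Plod2 encodes a collagen-modifying enzyme. All 10 were selected on the ratio of Tom+ to Tom- summed counts in fibroblast-like cells of these same data (the libraries are explained next). That ratio is therefore given below as a description and supports nothing. The cells came from the bladder of 1 male mouse aged 25 months, of genotype p16-CreERT2/R26-LSL-tdTomato. In this line tamoxifen activates a Cre recombinase expressed from p16 (Cdkn2a), and Cre then switches on the red fluorescent protein tdTomato from the Rosa26 locus, so that a cell keeps the mark even if Cdkn2a expression is later lost. Tamoxifen was injected into the peritoneal cavity on 5 consecutive days. After 2 weeks the bladder was taken, and DAPI-negative, CD45-negative cells were sorted by tdTomato fluorescence, and the positive cells gave the library called Tom+ and the negative cells the library called Tom-. The genotype, the tamoxifen and the exclusion of CD45-positive leukocytes were the same for both libraries.

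Matricellular proteins are secreted into the matrix but are not its main load-bearing fibres. They bind collagens, growth factors and cell-surface integrins, and they change how a cell adheres, migrates or responds to signals. In bladder and other organs, genes such as Tnc and Postn are known for expression during development, stretch and wound repair, in fibroblasts and smooth muscle. Matrilins and related proteins with von Willebrand A domains link matrix filaments to each other, and lysyl hydroxylases prepare collagen for stable crosslinks.

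The Tom- library held 13551 barcodes with 197232860 unique molecular identifiers (UMIs, counted molecules) and the Tom+ library held 2783 with 34455896, and after filtering 9905 and 1883 cells were used. With 1 library per group, and 1 animal for both, nothing below has a replicate check or a test, and 95% intervals cover counting error only. Clusters named from marker genes gave 4600 Tom- and 790 Tom+ fibroblast-like cells, with 53047998 and 7495202 UMIs. The median depth was 11274 UMIs per cell in Tom- and 8318 in Tom+, and the median mitochondrial share was 3.15% in both. In these cells the 8 fibroblast markers summed to 35583 CPM in Tom- against 35537 CPM in Tom+, where CPM is the UMIs of a gene divided by all UMIs of the same cells and scaled to a common total. The sort label held in these cells, with tdTomato at 18.7 CPM in Tom- against 1779 CPM in Tom+. Markers of several other cell types differed between the libraries within the class. The 7 smooth muscle markers, led by Tagln, summed to 186 CPM in Tom- against 264 CPM in Tom+, with 6 of the 7 higher in Tom+. The 6 erythroid markers summed to 471 CPM in Tom- against 46.7 CPM in Tom+, and all 6 were lower in Tom+. The 6 adipocyte markers, led by Car3, summed to 136 and 8.67 CPM, with 4 lower in Tom+ and 2 at 0 in both. Lymphatic endothelial markers summed to 9.71 and 1.87 CPM (5 of 6 lower in Tom+, 1 at 0 in both), and basal or intermediate urothelial markers to 46.2 and 26.8 CPM (5 of 6 lower). The part of these lists in the results below was not tested.

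The libraries shared 966 cell barcodes. Among the fibroblast-like cells 114 of 4600 Tom- cells and 66 of 790 Tom+ cells carried a shared barcode. They were unevenly spread: all 26 Tom+ cells of a state led by Sult1e1 and Apod had shared barcodes, and tdTomato there was at 31.1 CPM against 22.3 CPM in the Tom- cells of that state, against their sort label. In the fibroblast-like class, its states, the Car3-led cluster described next and mesothelial-like cells, a printed ratio is given both ways where leaving out shared barcodes turned its direction or moved its interval onto or off 1. An unnamed cluster of 790 Tom- and 26 Tom+ cells was led by Car3, Tnc, Rbp4, Hhip and Dkk2. Of the marker lists, smooth muscle fitted it best, with a mean log2 fold of 1.967 and 5 markers detected. No smooth muscle marker was among its leading genes, whereas the adipocyte marker Car3 was. The cluster therefore met no class name and stayed outside the fibroblast-like class, which matters for Tnc and Spon1.

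All 10 genes are protein-coding in the GRCm38 annotation, and their rows in the features files carried 1 identifier each. Only Matn2 and Svep1 overlap another counted gene, on the opposite strand in each case. Those neighbours, 9430069I07Rik and Gm26889, held 0 UMIs and at most 8 UMIs per library in fibroblast-like cells, so shared reads could change neither value visibly. RefSeq promoter windows of 300 bases (build GRCm38.p6) matched 5 of the 10 symbols: Tnc, Postn, Svep1, Itgbl1 and C1qtnf3. In total, 5 patterns were searched on both strands: the TATA box as TATAAA, the box named for its letters CCAAT, the GC box as GGGCGG, the AP-1 site as TGANTCA and the TEAD site as GGAATG, and no matches overlapped each other in these windows. TATAAA was found for 4 of these 5 genes (C1qtnf3, Postn, Svep1 and Tnc), against 13.6% of all 32851 promoter windows of that length. CCAAT matched 2 of 5 genes against 37.4% of windows, GGGCGG 2 against 35.7%, GGAATG 2 against 14.7%, and TGANTCA none against 7.81%. Tnc and Postn had 2 windows each and could match in either, so gene counts and window shares are not like for like. The 4 genes with TATAAA are shown because they came from both directions of difference: C1qtnf3 and Svep1 were higher in Tom+ fibroblast-like cells, and Tnc and Postn lower. Each line gives the 250 bases before a RefSeq start, 5′ to 3′ on the strand of the gene, and capitals mark matches to the searched patterns. The windows are chr4:64047016-64047265 (minus strand) for the upstream of 2 Tnc starts, chr3:54360857-54361106 (plus strand) for the downstream of 2 Postn starts, chr4:58206597-58206846 (minus strand) for Svep1 and chr15:10952082-10952331 (plus strand) for C1qtnf3.
Tnc: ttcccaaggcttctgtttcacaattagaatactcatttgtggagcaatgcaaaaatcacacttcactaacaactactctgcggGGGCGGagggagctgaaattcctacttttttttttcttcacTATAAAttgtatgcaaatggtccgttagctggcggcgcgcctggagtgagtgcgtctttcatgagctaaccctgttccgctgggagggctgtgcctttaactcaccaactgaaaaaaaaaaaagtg
Postn: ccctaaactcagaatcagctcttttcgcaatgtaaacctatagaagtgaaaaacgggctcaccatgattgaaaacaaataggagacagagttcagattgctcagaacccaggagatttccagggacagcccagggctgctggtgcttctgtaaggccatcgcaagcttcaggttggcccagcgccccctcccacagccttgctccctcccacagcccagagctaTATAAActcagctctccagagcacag
Svep1: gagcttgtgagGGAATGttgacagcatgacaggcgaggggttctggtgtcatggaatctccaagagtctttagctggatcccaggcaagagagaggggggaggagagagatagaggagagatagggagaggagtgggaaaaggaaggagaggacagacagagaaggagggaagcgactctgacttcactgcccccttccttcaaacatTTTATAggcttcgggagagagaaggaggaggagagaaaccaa
C1qtnf3: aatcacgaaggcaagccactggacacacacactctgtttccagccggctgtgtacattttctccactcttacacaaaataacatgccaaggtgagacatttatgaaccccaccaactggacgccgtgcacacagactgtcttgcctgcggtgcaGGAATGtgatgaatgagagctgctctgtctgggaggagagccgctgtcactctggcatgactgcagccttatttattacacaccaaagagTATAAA
In Postn the TATAAA match began 26 bases before the start, and in Svep1 the match, on the other strand, began 42 bases before it. In Tnc it lay 126 bases before this start and 205 before the other, and in C1qtnf3 it ended directly at the start. A match of letters is a description of these windows and not evidence of binding.

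In the whole fibroblast-like class, 6 of the 10 genes were at least 1.5 times higher in Tom+ on the scale with 1 CPM added (C1qtnf3, Smoc2, Matn2, Itgbl1, Plod2 and Svep1), and 2 were at least 1.5 times lower (Tnc and Spon1). Neither of the lower calls held with doublets kept (log2 ratios of -0.405 for Tnc and -0.224 for Spon1) or with only the clusters whose mean marker log2 fold reached 0.5 (-0.237 and 0.0332), where Vit was the one past the line (-0.631 and -0.667). Over the 8959 genes measured in the class, 1.43% were that much higher and 1.19% that much lower, and since this contrast chose the genes nothing is read from their excess. All 10 passed the filter on low values, which asked for 10 CPM in 1 library and 20 UMIs over both. Svep1 lay just inside the 1.5-fold line, with a log2 ratio of 0.59. Vit at -0.48 and Postn at -0.37 lay just outside it on the lower side.

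**Figure D1:**
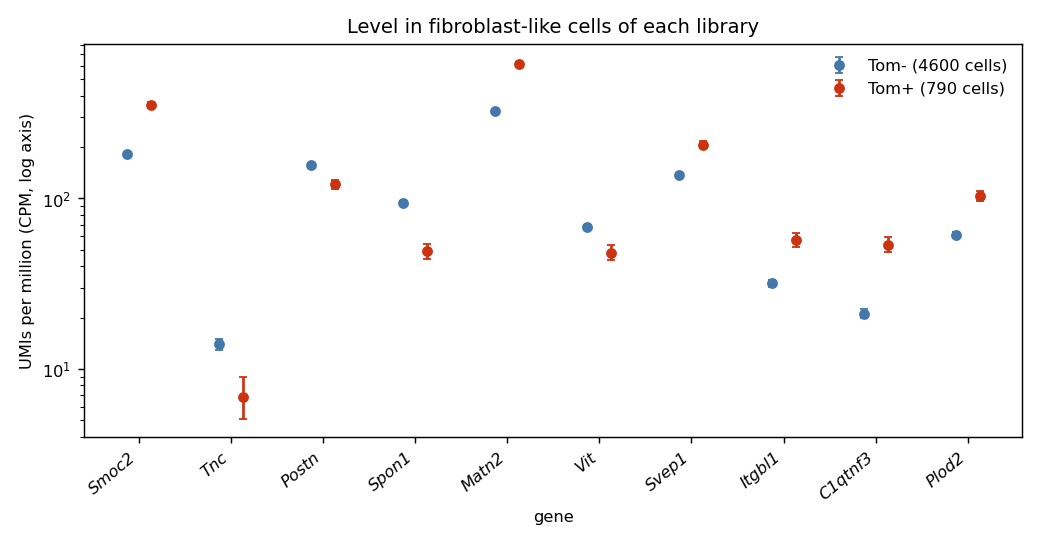
Level of each gene in fibroblast-like cells (y axis, CPM on a log axis) in the Tom- library (blue, 4600 cells) and the Tom+ library (red, 790 cells), with exact Poisson 95% intervals that cover counting error only. Smoc2, Matn2, Svep1, Itgbl1, C1qtnf3 and Plod2 are higher in Tom+, and Tnc, Postn, Spon1 and Vit are lower, with the widest interval for Tnc in Tom+, which rests on 51 UMIs.

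Among the matricellular proteins, Smoc2 (ENSMUSG00000023886, chr17:14279506-14404790, plus strand) encodes a secreted calcium-binding protein of the SPARC family that acts on growth factor signalling. It stood at 182 CPM in Tom- against 356 CPM in Tom+ (ratio of Tom+ to Tom- 1.96, 95% interval 1.87 to 2.04). The share of cells with a Smoc2 UMI was 55.9% in Tom- and 57.1% in Tom+ at full depth. With every cell cut at random to 2000 UMIs (thinned), it was 24.1% and 37.9%. Among umbrella urothelial-like cells, which should lack these genes, at most 0.592% of thinned cells held a UMI of any 1 of the 10. Those cells were deep, however, with a median of 38435 UMIs in Tom-. In the shallower endothelial-like cells of Tom- (median 6577 UMIs) the highest such shares were 2.59% for Plod2 and 2.27% for Smoc2. Both thinned shares of Smoc2 in fibroblast-like cells exceeded these values.

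Tnc (ENSMUSG00000028364, chr4:63959785-64047015, minus strand) encodes tenascin-C, a large multi-armed glycoprotein. It was at 14.0 CPM in Tom- against 6.80 CPM in Tom+ cells of the class, a ratio of 0.49 (0.36 to 0.65). The Tom+ level rested on 51 UMIs in 12 cells, and 10 of those cells held 96.1% of them. The Tom- level rested on 740 UMIs in 338 cells.

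Postn (ENSMUSG00000027750, chr3:54361109-54391037, plus strand) encodes periostin, which binds collagen and integrins through fasciclin domains. Its level was 156 CPM in Tom- against 121 CPM in Tom+ (ratio 0.77, 0.72 to 0.83). A UMI was found in 12.1% of thinned Tom- cells and 9.54% of thinned Tom+ cells. Spon1 (ENSMUSG00000038156, chr7:113765998-114043370, plus strand), which encodes F-spondin, a thrombospondin-repeat protein first known from the floor plate of the neural tube, was at 94.6 CPM in Tom- against 49.1 CPM in Tom+ (ratio 0.52, 0.47 to 0.58). After thinning, Spon1 was detected in 13.8% of the class in Tom- but 6.73% of it in Tom+.

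Of the adaptor and adhesion proteins, Matn2 (ENSMUSG00000022324, chr15:34306677-34436273, plus strand) encodes matrilin-2, a filament-forming adaptor. It was at 326 CPM in Tom- against 615 CPM in Tom+ (ratio 1.89, 1.83 to 1.95), with a UMI in 40.5% and 61.3% of thinned cells. Vit (ENSMUSG00000024076, chr17:78508064-78627408, plus strand) encodes vitrin, which also carries von Willebrand A domains, and its level was 67.7 CPM in Tom- against 48.2 CPM in Tom+ (ratio 0.71, 0.64 to 0.79). Thus the matrilin-related pair lay on opposite sides. Svep1 (ENSMUSG00000028369, chr4:58042442-58206859, minus strand), a very large adhesion protein and ligand of endothelial Tie1, Pear1 and integrin alpha9 beta1, was at 137 CPM in Tom- against 207 CPM in Tom+ (ratio 1.51, 1.43 to 1.59).

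Itgbl1 (ENSMUSG00000032925, chr14:123659971-123975618, plus strand) encodes a secreted protein with repeats like those of integrin beta chains but no membrane anchor. It stood at 31.7 CPM in Tom- against 57.1 CPM in Tom+ (ratio 1.80, 1.61 to 2.00). C1qtnf3 (ENSMUSG00000058914, chr15:10952332-10980150, plus strand), a secreted C1q/TNF-family protein related to adiponectin, was at 21.1 and 53.6 CPM (ratio 2.54, 2.27 to 2.85), the highest ratio of the 10, with a UMI in 3.41% of thinned Tom- and 7.57% of thinned Tom+ cells. Plod2 (ENSMUSG00000032374, chr9:92542223-92608428, plus strand), the lysyl hydroxylase that acts on collagen telopeptides, was at 61.0 and 104 CPM (ratio 1.70, 1.57 to 1.84). The thinned share of cells with a UMI and the summed level pointed the same way for all 10 genes.

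Without the shared barcodes, the same 6 genes were past 1.5-fold upward and 3 past it downward, Postn joining Tnc and Spon1. The share of all measured genes past 1.5-fold was not computed without them, so nothing is read from these counts. Spon1 then was at 94.9 CPM in 4486 Tom- cells and 36.7 CPM in 724 Tom+ cells (ratio 0.39, 0.34 to 0.44). Postn was at 157 and 103 CPM (ratio 0.66, 0.61 to 0.71). The other 8 ratios moved by smaller factors than that of Postn.

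The fibroblast-like cells were then divided into 11 states by clustering without the 10 genes, tdTomato and Cdkn2a. The genes' own counts thus did not enter the division into states. The earlier clustering that set which cells belong to the class did not leave these genes out. Of the 11 states, 7 had at least 30 cells in each library and were compared, covering 3790 of 4600 Tom- cells and 743 of 790 Tom+ cells. A state led by Dner, Cxcl12 and Kcnn3 held 18.0% of the class in Tom- and 36.2% of it in Tom+, while one led by Cck, Ednrb and Chodl held 18.9% and 5.32%. The other compared states were led by Bglap2 and Pex5l, by Tmem100 and Efhd1, by Cilp and Sfrp4, by the MHC class II gene Cd74 with Saa3, and by the noncoding Gm26917 with mt-Nd6. The state with Gm26917 was shallow, with a median of 2762 UMIs in Tom- and 2212 in Tom+, and held 11.02% and 9.75% mitochondrial UMIs.

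Of the 7 compared states, the Dner and Cxcl12 state had the highest Tom- levels of Smoc2, Matn2 and Svep1. Smoc2 was at 554 CPM there in Tom- and 856 CPM in Tom+ (ratio 1.55, 1.46 to 1.63), against 77.5 CPM in the lowest compared Tom- state. It was higher in Tom+ in 5 of the 7 states, with the interval above 1 in 3, and in the Cd74 and Saa3 state it was lower, at 103 and 75.2 CPM (ratio 0.73, 0.56 to 0.95, or 0.80, 0.59 to 1.06, without shared barcodes). Matn2 was higher in Tom+ in all 7 compared states, each with its interval above 1 and with ratios from 1.25 to 1.70. Its Dner and Cxcl12 state levels were 751 CPM in Tom- against 1048 CPM in Tom+, and no other of the 10 genes had the same direction upward in every compared state.

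Svep1 was higher in Tom+ in 4 of the 7 states, each with its interval above 1 and with ratios from 1.14 to 1.51. It was at 318 CPM in Tom- against 366 CPM in Tom+ cells of the Dner and Cxcl12 state (ratio 1.15, 1.06 to 1.25) and at 292 and 335 CPM in the Cilp and Sfrp4 state (ratio 1.14, 1.02 to 1.28, or 1.30, 1.15 to 1.47, without shared barcodes). In the Bglap2 and Pex5l state it was at 76.3 and 103 CPM (ratio 1.35, 1.09 to 1.65), and in the shallow Gm26917 state at 292 and 441 CPM (ratio 1.51, 1.09 to 2.06). In the Cd74 and Saa3 state it was at 7.16 CPM in Tom-, and no UMI was found in Tom+, which allows up to 3.27 CPM. That state therefore lacked most of the Svep1 signal in both libraries.

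C1qtnf3 was concentrated in 2 of the compared states, and in those the direction of its summed level differed. In the other 5 it lay at no more than 2.00 CPM in Tom-, while its Tom+ maximum of 15.5 CPM came from 2 UMIs. In the Dner and Cxcl12 state it was at 76.1 CPM in 829 Tom- cells and 152 CPM in 286 Tom+ cells (ratio 2.00, 1.74 to 2.29). In the Cilp and Sfrp4 state it was at 76.8 CPM in 420 Tom- cells and 40.03 CPM in 101 Tom+ cells (ratio 0.52, 0.38 to 0.70), or at 52.4 CPM in Tom+ without shared barcodes (ratio 0.68, 0.49 to 0.93). The Tom- cell with the most held 62 of the 483 Tom- UMIs there, and 10 cells held 44.5% of them. The thinned share of cells with a UMI went the other way in that state, 9.59% in Tom- and 11.1% in Tom+. Itgbl1 had its highest level in the Cilp and Sfrp4 state in both libraries, 129 CPM in Tom- against 171 CPM in Tom+ (ratio 1.33, 1.13 to 1.55). In the shallow Gm26917 state its 8.01 and 124 CPM rest on 4 and 16 UMIs.

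Plod2 was at 88.7 CPM in Tom- against 163 CPM in Tom+ cells of the Dner and Cxcl12 state (ratio 1.84, 1.61 to 2.10). Its highest Tom- level was in the Cd74 and Saa3 state, where the direction was the other way, 154 CPM in Tom- against 118 CPM in Tom+ (ratio 0.76, 0.61 to 0.94). The whole-class ratio of Plod2 thus joins states of unlike direction, and the difference between them was not tested.

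Postn and Vit shared their highest compared Tom- state, the one led by Tmem100 and Efhd1. Postn was there at 421 CPM in Tom- against 291 CPM in Tom+ (ratio 0.69, 0.62 to 0.77). Vit was at 140 and 82.2 CPM (ratio 0.59, 0.47 to 0.72). Vit was lower in Tom+ in all 7 compared states. The interval lay below 1 in 3 of them, and in 2 without shared barcodes, where the ratio in the Cilp and Sfrp4 state went from 0.65 (0.51 to 0.82) to 0.86 (0.67 to 1.10). Postn was lower in 4 states and higher in 3, among them the Dner and Cxcl12 state, where it was low in both libraries (15.25 and 29.2 CPM, ratio 1.92, 1.39 to 2.63). The 65 Tom+ UMIs there came from 12 cells, and the thinned share of cells with a UMI went the other way, 3.70% in Tom- and 1.86% in Tom+. In the Cilp and Sfrp4 state Postn was at 275 CPM in Tom- against 189 CPM in Tom+ (ratio 0.69), or 115.5 CPM in Tom+ without the 12 shared-barcode cells of 101 (ratio 0.42, 0.34 to 0.52). A state led by Dpp4 and Edn1, with only 12 Tom+ cells and therefore not compared, held both genes at higher levels still, Postn at 475 CPM and Vit at 252 CPM in 180 Tom- cells.

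Spon1 had no common direction within states. It was at 151 CPM in Tom- against 164 CPM in Tom+ cells of the Cck and Ednrb state (ratio 1.08, 0.84 to 1.37), its highest compared state, and at 19.5 and 11.2 CPM in the Dner and Cxcl12 state (ratio 0.58, 0.36 to 0.89). In the Cilp and Sfrp4 state its direction depended on the shared barcodes: 91.1 CPM in Tom- against 129 CPM in Tom+ with them (ratio 1.41, 1.17 to 1.69) and 53.6 CPM in Tom+ without them (ratio 0.59, 0.42 to 0.80). Spon1 was highest in a state led by Car3, Cxcl14 and Dkk2, at 474 CPM in 423 Tom- cells and 512 CPM in 9 Tom+ cells. That state made up 9.20% of the class in Tom- but 1.14% of it in Tom+.

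Tnc was near background in most of the class. In the Dner, Cck, Bglap2, Tmem100 and Cilp states it lay between 1.835 and 4.73 CPM in Tom- and between 0 and 0.848 CPM in Tom+, while umbrella urothelial-like cells held 1.21 CPM in Tom- against 0.0648 CPM in Tom+. Its direction in those states is therefore read as background. The shallow Gm26917 state held 3 Tnc UMIs in Tom- and 0 in Tom+. The Cd74 and Saa3 state held the most of those compared, 66.2 CPM in Tom- against 50.1 CPM in Tom+ (ratio 0.76, 0.54 to 1.04). The Car3, Cxcl14 and Dkk2 state held 70.4 CPM in Tom-.

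**Figure D2:**
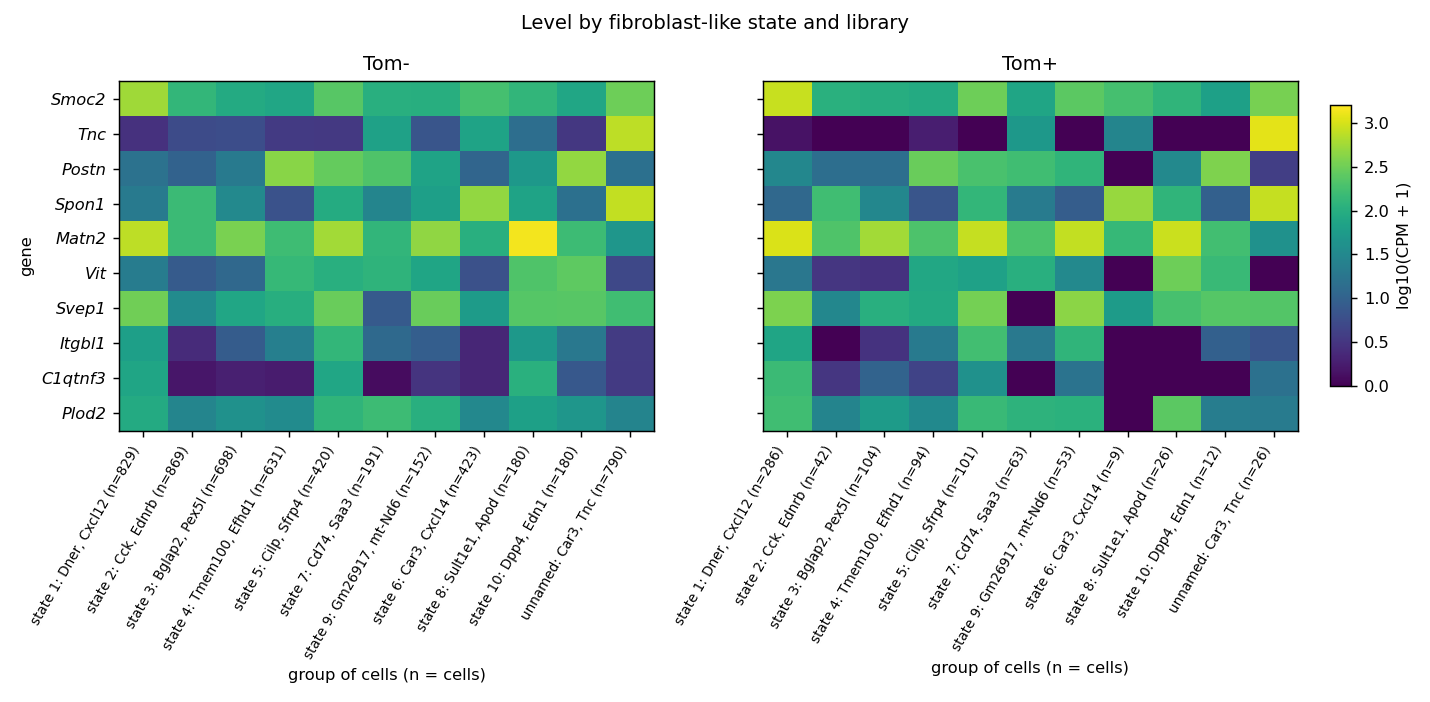
Level of each gene (colour, log10 of CPM plus 1) in 10 fibroblast-like states with cells in both libraries and in the unnamed Car3- and Tnc-led cluster, in Tom- (left) and Tom+ (right), with the number of cells at each column. Smoc2, Matn2 and Svep1 are bright in the Dner and Cxcl12 state, Postn and Vit in the Tmem100 and Efhd1 state and the Dpp4 and Edn1 state, and Tnc and Spon1 in the unnamed cluster; the Car3, Sult1e1 and Dpp4 states and the unnamed cluster have fewer than 30 Tom+ cells.

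The unnamed Car3-led cluster was the main home of Tnc and, in Tom-, of Spon1. The clustering that formed it did not leave these genes out, and both were among its leading genes. The shares below could therefore be partly built in. The cluster held 90.4% of the Tnc UMIs of all used Tom- cells and 86.7% of those in Tom+, against 7.08% and 11.1% in the whole fibroblast-like class. Tnc was at 757 CPM in its 790 Tom- cells and 1167 CPM in its 26 Tom+ cells (ratio 1.54, 1.39 to 1.71). After thinning, a Tnc UMI was found in 68.2% of its Tom- cells and 88.0% of its Tom+ cells. Spon1 was at 808 and 833 CPM (ratio 1.03, 0.91 to 1.16), and the cluster held 65.0% of Tom- and 41.95% of Tom+ Spon1 UMIs. Smoc2 was also present, at 312 and 346 CPM, and so was Svep1, at 164 and 217 CPM (ratio 1.33, 1.04 to 1.67, or 1.19, 0.88 to 1.56, without shared barcodes), whereas Postn was at 14.3 and 2.93 CPM, the latter from 1 UMI.

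Whether that cluster is counted decides how Tnc and Spon1 read over all cells. Over all used cells Tnc was at 63.5 CPM in Tom- against 13.9 CPM in Tom+, and Spon1 at 94.3 and 20.45 CPM, in libraries where the cluster made up 790 of 9905 and 26 of 1883 cells. The markers of the cluster fitted smooth muscle best, so counting it as fibroblast-like is an alternative and not a class assignment. With the cluster counted as fibroblast-like, 5 of the 10 genes were at least 1.5 times higher in Tom+ and 2 lower, against 1.97% and 2.28% of 9024 measured genes. Svep1 was then just short, with a log2 ratio of 0.54, and Tnc and Spon1 were lower by log2 ratios of -1.42 and -1.46. Within the cluster itself Tnc was higher in Tom+, so the direction for Tnc was not the same inside the cluster and over all cells.

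To separate the mix of states from levels within them, the Tom- state levels were weighted by the Tom+ shares of the 7 compared states. For Smoc2 the mix alone gave a log2 ratio of 0.45 and the remaining difference within states was 0.50. For C1qtnf3 the values were 0.63 and 0.60, for Matn2 0.33 and 0.52, for Plod2 0.34 and 0.36 and for Itgbl1 0.40 and 0.32. For Svep1 the mix gave more, 0.40 against 0.18. These 6 genes were higher by both components. They were chosen on the whole-class ratio, and the components were not computed over all measured genes, so nothing is read from this count.

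The 4 lower genes divided differently. Spon1 had -0.46 from the mix and 0.08 within states, but -0.53 and -0.41 without shared barcodes, and the state with the most Spon1 is not among the 7. Vit had 0.10 and -0.55, and Postn -0.0086 and -0.40, with little from the mix of the 7 states in either. Without shared barcodes these were 0.0092 and -0.46 for Vit and -0.11 and -0.47 for Postn. The Dpp4 and Edn1 state, with more of both genes, is not among the 7. It held 3.91% of the class in Tom- and 1.52% of it in Tom+. Tnc had 0.38 and -0.63, with the low counts described above. The Car3, Cxcl14 and Dkk2 state, which held 359 of the 740 Tom- Tnc UMIs of the class, is not among the 7 either.

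**Figure D3:**
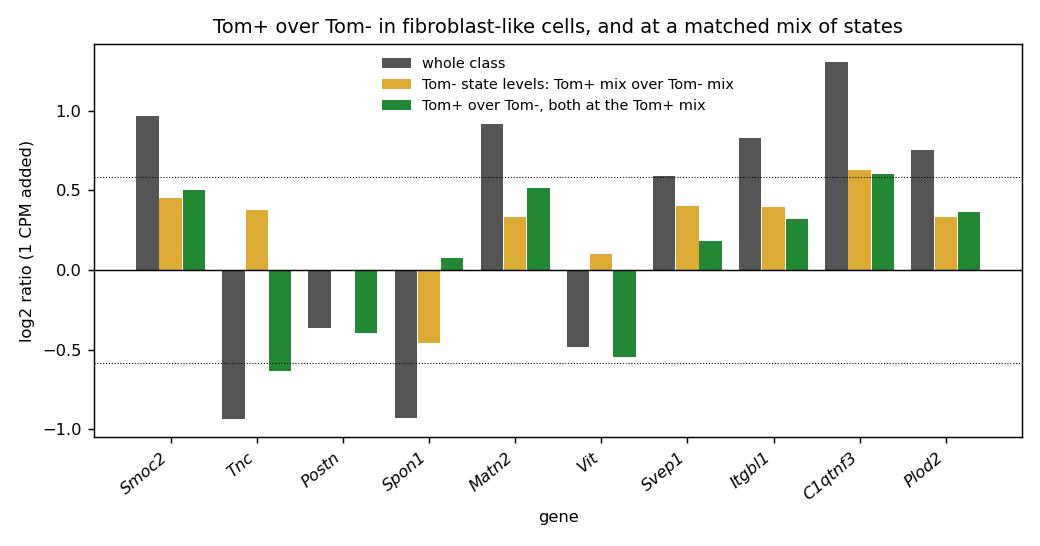
Log2 ratio of Tom+ over Tom- with 1 CPM added (y axis) for each gene in the whole fibroblast-like class (grey), for Tom- state levels at the Tom+ mix of the 7 compared states over the same levels at the Tom- mix (yellow), and for Tom+ over Tom- with both at the Tom+ mix (green). Dotted lines mark 1.5-fold; Smoc2, Matn2 and C1qtnf3 have similar yellow and green bars or a taller green bar, Spon1 has a yellow bar of -0.46 and a green bar near 0, and Vit and Postn have their lower value in the green bar.

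When each of the 7 states had the same weight, C1qtnf3 alone was at least 1.5 times higher, with a log2 ratio of 1, against 0.268% of 8959 measured genes. That value depended on how finely the states were divided: it was 0.54 at a clustering resolution of 0.3 and 0.37 at 0.8, against 0.5 here, and states with 2 and 10 Tom+ UMIs of C1qtnf3 entered it. Vit was at least 1.5 times lower, at -0.92, against 4.6% of genes. States with only 1, 2 and 4 Tom+ UMIs of Vit entered that mean. Tnc was at -1.68, but 6 of the 7 states held at most 1 Tom+ UMI of it, and this value is not read. Matn2 was then at 0.55 and Smoc2 at 0.28, and Svep1 turned to -0.30. Svep1 was higher in Tom+ in 4 of the 7 states and lower in 3. The Cd74 and Saa3 state, with 25 Svep1 UMIs in Tom- and 0 in Tom+, entered its mean with full weight. The median over all measured genes was -0.034 by this measure and -0.0031 for the whole class.

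Across all cell classes, the 10 genes were mostly stromal. Of all UMIs in used cells, the fibroblast-like class held 94.3% of Itgbl1, 93.6% of C1qtnf3, 90.7% of Postn and 86.2% of Matn2 in Tom-, and between 93.9% and 97.5% of each in Tom+. It held 50.9% of Smoc2 UMIs in Tom- and 75.3% in Tom+. In umbrella urothelial-like cells, with median depths of 38435 and 37717 UMIs, no gene passed 3.04 CPM in either library. The Tom+ levels there rested on 0 UMIs (C1qtnf3) to 21 UMIs (Matn2), so no direction is read.

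Mesothelial-like cells, which line the outer surface of the bladder, were the other large source of Smoc2. The level was 298 CPM in 755 Tom- cells and 220 CPM in 153 Tom+ cells (ratio 0.74, 0.68 to 0.80). Of these, 63 Tom+ cells and 11 Tom- cells had shared barcodes. Without them Smoc2 was at 299 CPM in Tom- against 382 CPM in Tom+ (ratio 1.28, 1.16 to 1.41), so the direction turned. Plod2 was at 104 and 92.5 CPM in this class (ratio 0.89, 0.78 to 1.01), Vit at 56.2 and 57.7 CPM (ratio 1.03, 0.87 to 1.21) and Matn2 at 52.7 and 48.1 CPM (ratio 0.91, 0.76 to 1.09). Without shared barcodes all 3 turned: the ratio was 1.095 for Plod2 (0.91 to 1.31), 0.72 for Vit (0.52 to 0.965) and 1.325 for Matn2 (1.035 to 1.67). No direction is read for these 3 genes in mesothelial-like cells.

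Schwann-like cells, the glia of peripheral nerves, numbered 49 in Tom- and none in Tom+. They held Matn2 at 1453 CPM (95% interval 1318 to 1599) and Postn at 1219 CPM (1095 to 1353), each above the Tom- level of the same gene in every compared fibroblast-like state. The Sult1e1 and Apod state reached 1376 CPM for Matn2 in Tom-, within that interval. Smooth muscle-like cells, 64 in Tom- and 1 in Tom+ without the Car3-led cluster, held Postn at 95.8 CPM and Matn2 at 67.4 CPM in Tom-. Lymphatic endothelial-like cells held Tnc at 43.2 CPM in Tom- against 17.8 CPM in Tom+, from 52 and 8 UMIs (ratio 0.41, 0.17 to 0.87). An unnamed cluster led by Rorb and Coch held Matn2 at 1336 CPM in 112 Tom- cells and 1410 CPM in 53 Tom+ cells, all of which had shared barcodes.

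**Figure D4:**
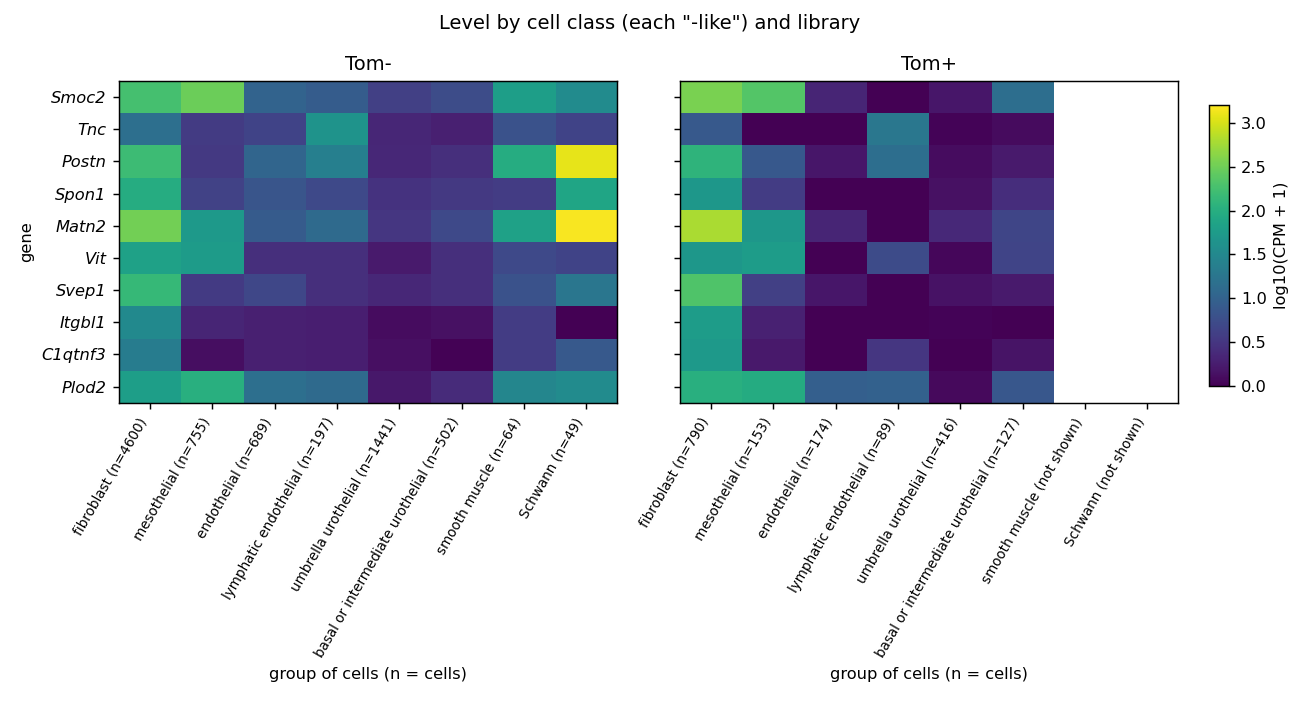
Level of each gene (colour, log10 of CPM plus 1) by cell class in Tom- (left) and Tom+ (right), with the number of cells at each column; smooth muscle-like and Schwann-like cells are blank in Tom+, which held 1 and none. Urothelial and endothelial columns are dark for nearly all 10 genes, Smoc2 and Plod2 are bright in fibroblast- and mesothelial-like cells, and Matn2 and Postn are brightest in Schwann-like cells of Tom-.

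Of the receptors of Svep1, Tie1 was nearly absent from the fibroblast-like class, while Pear1, Itga9 and Itgb1 were found there too. Tie1, a receptor tyrosine kinase of vessels, was at 313 CPM in Tom- against 365 CPM in Tom+ lymphatic endothelial-like cells, and at 0.905 and 0.267 CPM in fibroblast-like cells. Pear1, which also occurs on platelets, was at 166 and 154 CPM in lymphatic endothelial-like cells and 18.7 and 19.1 CPM in fibroblast-like cells, which held 991 of the 2489 Pear1 UMIs of used Tom- cells. The integrin chain Itga9 was at 96.35 CPM in Tom- lymphatic endothelial-like cells and at 22.0 and 24.95 CPM in the fibroblast-like class, which held 1167 of its 1606 UMIs in used Tom- cells. Itga8, an integrin chain that is not among the Svep1 receptors named above, was at 193 CPM in smooth muscle-like cells of Tom-. It was at 0.754 and 1.33 CPM in fibroblast-like cells. The common beta chain Itgb1 was at 373 and 422 CPM in fibroblast-like cells.

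Related matrix genes from 9 lists, made without the 10, moved little in the fibroblast-like class. Of 119 listed genes 80 were measured, 3 were at least 1.5 times higher in Tom+ and none at least 1.5 times lower, beside 1.43% and 1.19% of all measured genes. Their median log2 ratio was 0.11, against -0.0031 over all measured genes. The 3 were Cthrc1, a secreted collagen-triple-helix-repeat protein, at 6.52 and 12.7 CPM (ratio 1.94, 1.53 to 2.445), Spock2, a SPARC-family proteoglycan, at 10.3 and 17.5 CPM (ratio 1.70, 1.39 to 2.06), and Cyr61, the CCN protein that binds integrins, at 73.4 and 115.5 CPM (ratio 1.57, 1.46 to 1.695). When each of the 7 compared states had the same weight, none of the 3 was 1.5 times higher. Their log2 ratios were then 0.022 for Cthrc1, 0.21 for Spock2 and -0.60 for Cyr61. Relatives of the 10 varied. Some stood near 1: Sparc was at 2565 and 2405 CPM (ratio 0.94), Tnxb, another tenascin, at 525 and 600 CPM (ratio 1.14), Tgfbi, the other fasciclin protein, at 138 and 149 CPM (ratio 1.08), and Plod1, a sister lysyl hydroxylase, at 35.3 and 45.4 CPM (ratio 1.28). Others, named after their values were seen, were higher in Tom+. Smoc1, the paralog of Smoc2, was at 5.11 and 8.14 CPM (ratio 1.59, 1.19 to 2.11) and Matn4 at 2.375 and 3.74 CPM (ratio 1.57, 1.005 to 2.38), both too low to count as measured. Spon2 was at 243 and 337 CPM (ratio 1.39, 1.33 to 1.45).

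The remaining list extremes were as follows. Thbs2 reached 211 and 311 CPM (ratio 1.48, 1.41 to 1.54) and Thbs1 29.7 and 28.4 CPM (ratio 0.96). The CCN gene Nov had the lowest ratio of the 80 measured genes, at 57.7 and 39.9 CPM (ratio 0.69, 0.61 to 0.78). Of the genes too low to count as measured, Frem1 was at 7.09 and 1.73 CPM (ratio 0.24, 0.13 to 0.42). Of the C1q/TNF family, C1qtnf12 had a ratio of 1.16 and C1qtnf1 of 0.92, against 2.54 for C1qtnf3. Ecm1 was at 0.77, P3h1 at 0.91, Vwa1 at 1.18, Sdc1 at 1.34 and Tek at 0.81.

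Over 33 groups of cells (cell classes and fibroblast-like states by library, which share cells and libraries and differ in depth), the genes whose levels ran most like each member were as follows. Plod2 was most like P4ha1, a prolyl hydroxylase (r = 0.95), Smoc2 like Pcolce (0.94), Svep1 like Dpep1 (0.96) and Matn2 like Dact3 (0.95). Vit was most like Ifi204 (0.90), Itgbl1 like Dpt (0.89), Postn like Aldh1a3 (0.88), Spon1 like Sfrp1 (0.87) and C1qtnf3 like Ptgir (0.83). Tnc had no close match, with Unc13c at 0.67. Among the 10 over 17 state groups, the highest correlation was between Postn and Vit (r = 0.86), then between Matn2 and C1qtnf3 (0.85), and the lowest between Tnc and Svep1 (-0.62).

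Detection in the same single cells is given for 4 pairs chosen after their values were seen. Among 4400 thinned Tom- fibroblast-like cells, Vit was found in 22.7% of cells with a Postn UMI and 7.29% of those without. C1qtnf3 was found in 6.57% of cells with Matn2 and 1.26% of those without, and in 713 thinned Tom+ cells in 10.8% and 2.54%. It was found in 9.25% of cells with Smoc2 and 1.56% of those without, and in Tom+ these shares were 15.9% and 2.48%. Spon1 was found in 36.7% of the 98 Tom- cells with Tnc and 13.3% of those without, a pair whose correlation over the state groups was 0.28. In Tom+ only 5 thinned cells held Tnc, too few to compare.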

How the data were processed

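The authors deposited raw UMI counts, 1 matrix for each library, made with the 10x Single Cell 3' v3.1 kit per the labels' protocols. Cell Ranger 7.0.0 and build mm10 are named in the submitters' processing notes, but 3.0.2 is the software version per the matrix headers. The step that selected barcodes is not given in the sources used here. No normalization was found in the values. Every barcode had at least 500 UMIs.

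Cells with at least 1000 UMIs, 500 genes and at most 15% mitochondrial UMIs were kept. Scrublet, run per library, called 690 of 10595 Tom- cells (6.51%) and 10 of 1893 Tom+ cells (0.528%) doublets, which were left out. The rest were clustered together (2000 variable genes, 30 components, 15 neighbours, Leiden resolution 1; scanpy 1.11.5 on Python 3.11.15, scikit-learn 1.9.0, igraph 0.11.9, leidenalg 0.10.2, scipy 1.17.1, numpy 2.4.6). Of 25 clusters, a cluster was named for a class when its markers had a mean log2 fold of at least 0.25, at least 3 of them were in 25% of its cells, and no other class had more markers among its 10 leading genes. The 0.25 replaced 0.5 after the clusters were seen, because a cluster led by Cck and Cxcl14 with 7 of 8 fibroblast markers detected had 0.33. The states came from a separate clustering of this class, at resolution 0.5.

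UMIs were summed per class or state and library and scaled to CPM. Ratios are Tom+ over Tom- with exact conditional binomial 95% intervals, and levels have exact Poisson intervals. Where no UMI was found, the level of 3 UMIs is given as the limit. Log2 ratios add 1 CPM. For shares of cells every cell was thinned to 2000 UMIs. In the fibroblast-like class 200 cells of Tom- and 77 of Tom+ were too shallow for this. The ratio calculation was tested on simulated data. No count model was used because there was 1 library per group. TMM scaling used edgeR 4.0.16 as an alternative.

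Besides the 10 genes, those named were the closest by correlation over groups of cells, the highest and lowest of each list, every listed gene past 1.5-fold, 5 receptors, tdTomato and Cdkn2a, and marker genes where a result needs them. The members, lists and tests were chosen with earlier results of these data known.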

Additional observations from a re-analysis of the deposited data

Results flagged for a closer look

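C1qtnf3 stood out because its Tom+ to Tom- ratio pointed opposite ways in 2 fibroblast-like states. The ratio was 2.545 over the whole fibroblast-like class, 1.995 in the Dner and Cxcl12 state and 0.5212 in the Cilp and Sfrp4 state. With 1 library per group the difference between the states was not tested. Without shared barcodes the ratios were 2.00 in the Dner and Cxcl12 state and 0.68 in the Cilp and Sfrp4 state. In the latter, 10 Tom- cells held 44.5% of the Tom- UMIs. The thinned share of cells with a UMI went the other way there, 9.59% in Tom- and 11.1% in Tom+.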

How the results depend on the processing

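The counts of genes past 1.5-fold and the log2 ratio of each gene were recomputed under 18 alternatives, 15 chosen with the design and 3 added after seeing the data (the Car3-led cluster counted, only clusters whose mean marker log2 fold reached 0.5, and without the Cd74 and Gm26917 states). The 6 higher genes became 1, 1 and 0 as equal-weight means over the states at resolutions 0.3, 0.5 and 0.8, and 1 when Tom- levels were given the Tom+ mix. The 2 lower genes became 1 with doublets kept, 1 at the Tom+ mix and 1 with only the clusters of at least 0.5. In the first and last of these neither Tnc nor Spon1 was past 1.5-fold, and the gene counted was Vit. At Leiden resolution 0.5 the 2 were Tnc and Vit. Of these alternatives, the share of all measured genes was computed only with the Car3-led cluster and for state means at 0.5. Nothing is read from the other counts. Spon1 turned to 0.0779 at the Tom+ mix and 0.0332 with only those clusters, and Svep1 to -0.556, -0.297 and -0.341 as state means at the 3 resolutions. In these the states weigh differently or clusters are left out by construction. The Svep1 mean at 0.5 also includes the Cd74 and Saa3 state, with 25 Tom- and 0 Tom+ UMIs of it. Spon1 was at -0.224 and Tnc at -0.405 with doublets kept, and Spon1 at -0.325 at Leiden resolution 0.5, and the cause was not tested. Tnc was at -2.67 without the Cd74 and Gm26917 states, which held most of its Tom+ UMIs in the class, and at -0.237 with only the clusters of at least 0.5. Postn ranged from -0.597 without shared barcodes to 0.0407 as a state mean at 0.5. Smoc2, Matn2, Itgbl1, C1qtnf3 and Plod2 were above 0 and Tnc and Vit below 0 under all 18.

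Of all measured genes, 412 were higher and 348 lower without a filter on low values, and 32 and 31 with at least 50 CPM. Of the listed genes 3 were lower without the filter and 1 was higher at 50 CPM. The split into mix and within-state parts was also repeated without shared barcodes, an alternative added after seeing the data, and of the within-state parts Spon1 alone changed sign, from 0.08 to -0.41. Counting unnamed clusters that score best for fibroblast markers gave no value, since none remained. No paired analysis was possible because each group was 1 library. Depth limits Tnc most, with 51 Tom+ UMIs in the class.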

Other observations

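The Car3-led cluster in which Tnc was highest also held most of the Cdkn2a signal of the Tom- library. Cdkn2a, whose locus gives the p16 and p19Arf transcripts that 3' counts do not tell apart, was at 35.8 CPM in its 790 Tom- cells and 35.2 CPM in its 26 Tom+ cells, the latter from 12 UMIs. These were 65.1% of the Cdkn2a UMIs of used Tom- cells and 10.1% of those of used Tom+ cells. In the fibroblast-like class Cdkn2a was at 2.85 CPM in Tom- against 10.9 CPM in Tom+. The compared state with the most Tnc, led by Cd74 and Saa3, was also the one with the most Cdkn2a. It was at 24.9 CPM there in Tom- against 47.9 CPM in Tom+, from 87 and 44 UMIs. In the Dner and Cxcl12 state, which of the compared states had the highest Tom- levels of Smoc2, Matn2 and Svep1 and was the most common state in Tom+, Cdkn2a was at 2.82 and 4.04 CPM, from 20 and 9 UMIs. These are levels side by side, with 1 library per group and no test.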
